A study of Mus musculus with 16 samples.

Results

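Heat shock proteins are molecular chaperones, and 9 genes of this family were followed in lymphatic endothelial cells sorted from mouse hearts after myocardial infarction (MI) or sham surgery. The 9 genes, of 15895 listed in the deposited table, were chosen by name: Hspa1a, Hspa1b and Hspa8 (cytosolic Hsp70), Hspa5 (Hsp70 of the endoplasmic reticulum, ER), Hsp90aa1 and Hsp90ab1 (cytosolic Hsp90), Hsph1 (Hsp110), Dnajb1 (Hsp40) and Hspb1 (small heat shock protein). All 9 were found under these symbols and all 9 passed the filter on low values. Hspa1b passed it chiefly through libraries of surgery on postnatal day 1 (P1). In fits of only the sham or only the adult libraries it fell below the filter, and 8 members were tested.

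The RNA libraries were made from CD1 mice, 4 libraries in each of 4 groups. MI P56 hearts had the left descending coronary artery ligated in adult males, and sham P56 hearts had the same operation without ligation. MI P1 hearts were infarcted on postnatal day 1, and sham P1 hearts had the neonatal operation without infarction. All hearts were taken 3 days after surgery, and the sort kept cells that were CD45-, CD31+ and Podoplanin+. Adult hearts were digested by perfusion through the aorta, whereas neonatal ventricles were pooled, cut up and stirred for longer in warm enzyme. Age, sex of the animals, pooling and digestion therefore cannot be told apart in any comparison of P56 with P1. Whether libraries of 1 group came from separate litters or animals is not stated in the labels, and the p-values therefore measure spread between libraries, part of which may be technical. In bulk RNA, fewer cells with a transcript and less of it per cell cannot be told apart.

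Hsp70 chaperones bind unfolded stretches of protein and release them in a cycle driven by ATP. J-domain proteins such as Dnajb1 deliver the substrate and start ATP hydrolysis, Hsp110 exchanges the nucleotide, and Hsp90 completes the folding of many kinases and receptors. Heat and other protein damage free the transcription factor Hsf1, which binds heat shock elements, inverted repeats of GAA, in the promoters of inducible members such as Hspa1a. Unfolded protein in the ER acts instead through Atf6 and Xbp1 on ER stress elements, as in Hspa5. Heat shock and immediate early genes are also known to be induced while tissue is dissociated into single cells.

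Depth ran from 17103319 to 43837520 reads per library. In 3 libraries fewer than 10000 genes had a read: sham P1 library 1 with 9451, sham P1 library 2 with 7939 and MI P56 library 5 with 7746. Reads of 1 gene, Uqcrc1, made up 18.1%, 98.6% and 99.8% of these 3 libraries. The other 13 libraries had 14121 to 15821 genes with a read, and all tests below use them unless all 16 libraries are named: MI P56 libraries 1, 2 and 3, sham P56 libraries 1, 2, 3 and 5, MI P1 libraries 1, 2, 3 and 5 and sham P1 libraries 3 and 5. Of the 13, sham P1 library 5 had 47.3% of its reads on Uqcrc1. Mitochondrial rRNA took 27.7% to 51.7% of the reads in the 13 libraries. Reads outside Uqcrc1 and mitochondrial rRNA numbered 6709566 to 12918569 in the 13 libraries and 41346 to 6376296 in the other 3. Values are the deposited TMM-scaled CPM, reads scaled to the size of the library, in which 1 read was worth 0.0163 to 0.0362 in the 13 libraries and 0.12 to 4.31 in the other 3. The lymphatic markers Prox1, Lyve1, Flt4, Pdpn, Reln and Mmrn1 were detected, with a summed value of 979 to 2344 in MI P56, 1735 to 3065 in sham P56, 1563 to 2554 in MI P1 and 2019 to 2952 in sham P1. Ccl21a, the remaining marker of that list, is not listed. Fibroblast markers (6 genes) summed to 2725 to 6015 in MI P56, 566 to 2552 in sham P56, 1190 to 3952 in MI P1 and 2175 to 4821 in sham P1.

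Promoters were searched for the elements named above, and 6 of the 9 genes have an entry in the RefSeq promoter table (GRCm38.p6, 250 bases before to 50 after the start site). Hspa8, Hsp90aa1 and Hsp90ab1 have none there. The motifs GAANNTTC and TTCNNGAA, each its own reverse complement, were searched as minimal heat shock elements. At least 1 of them lay in the promoters of Hspa1a, Hspa1b, Hsph1 and Hspb1, and in 15.1% of all 32851 promoters. The ER stress element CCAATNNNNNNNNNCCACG, searched on both strands, was found in 0.119% of promoters and lay 65 bases before the start of Hspa5. Neither heat shock motif was found in either window of Dnajb1. The 4 promoters below show the near-identical pair, the member with most motif matches and the ER member. Capitals mark the motif matches, and overlapping matches run together in Hsph1. Hspa1a (chr17:34972107-34972406, minus strand), Hspa1b (chr17:34959189-34959488, minus strand), Hsph1 (first start site, chr5:149636287-149636586, minus strand) and Hspa5 (chr2:34771840-34772139, plus strand) read 5′ to 3′:
Hspa1a: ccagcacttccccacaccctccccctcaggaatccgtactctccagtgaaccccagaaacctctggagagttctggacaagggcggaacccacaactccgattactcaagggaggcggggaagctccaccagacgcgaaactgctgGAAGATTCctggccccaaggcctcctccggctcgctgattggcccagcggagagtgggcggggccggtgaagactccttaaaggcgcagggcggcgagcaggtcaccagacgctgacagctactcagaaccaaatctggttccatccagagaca
Hspa1b: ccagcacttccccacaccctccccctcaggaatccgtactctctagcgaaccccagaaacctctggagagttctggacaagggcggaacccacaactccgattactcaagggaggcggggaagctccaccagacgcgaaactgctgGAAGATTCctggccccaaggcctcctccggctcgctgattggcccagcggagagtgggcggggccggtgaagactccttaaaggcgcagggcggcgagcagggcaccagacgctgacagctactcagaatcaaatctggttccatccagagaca
Hsph1: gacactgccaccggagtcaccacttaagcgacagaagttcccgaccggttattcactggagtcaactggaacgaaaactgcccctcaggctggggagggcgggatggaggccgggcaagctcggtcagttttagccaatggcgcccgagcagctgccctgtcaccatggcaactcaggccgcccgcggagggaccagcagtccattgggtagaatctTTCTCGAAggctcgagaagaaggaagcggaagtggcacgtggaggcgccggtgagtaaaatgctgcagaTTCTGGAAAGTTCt
Hspa5: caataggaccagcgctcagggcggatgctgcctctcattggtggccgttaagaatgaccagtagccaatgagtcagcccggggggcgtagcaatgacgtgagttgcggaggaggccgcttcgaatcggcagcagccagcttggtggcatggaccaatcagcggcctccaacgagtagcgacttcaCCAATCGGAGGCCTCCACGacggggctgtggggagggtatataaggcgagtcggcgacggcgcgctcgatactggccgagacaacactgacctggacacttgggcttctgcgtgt

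The Hspa1a and Hspa1b promoters differed at 4 of 300 bases, C44T, T47C, T249G and C276T, with the Hspa1a base first and positions counted from 1 at the 5′ end. Both had 1 heat shock motif, 104 bases before the start site. The transcripts are as close: 51.6% of all 80-base windows of Hspa1a, 80 bases being the read length, also occur in Hspa1b. Reads from such windows cannot be assigned to 1 of the 2 genes, so their sum is given beside them.

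The main pattern was one of age. In sham hearts 8 of the 9 genes had lower fitted values at P56 than at P1, and 2 of them, Hspa8 and Hsp90aa1, passed the test. Hspa1b, 1 of the 8, fell below the filter when only the sham libraries were fitted. After MI all 9 had lower fitted values at P56, and 3 passed: Hspa1a, Hspa8 and Hsp90aa1. The background was 13.2% of 13033 genes called for age in sham, 7.28% lower and 5.89% higher, and 5.35% after MI, 3.26% lower and 2.09% higher. The members' median log2 difference was -1.15 in sham and -0.86 after MI, and that of all genes was 0.00 and 0.01. No member passed the test for MI against sham at either age. Markers of other cells were also called for age in sham. At P56, 3 of 6 fibroblast and 1 of 5 tested macrophage and leukocyte genes were lower. Higher were 4 of 6 blood endothelial, 7 of 7 cardiomyocyte and 1 of 5 pericyte and smooth muscle genes. Of 6 tested lymphatic genes 0 were called. After MI 1 of 6 blood endothelial genes was lower, and 1 of 5 macrophage and leukocyte and 1 of 7 cardiomyocyte genes were higher. The part of such cells in the age pattern was not tested. The test was limma-trend on log2(value + 1), two-sided, with the Benjamini-Hochberg adjusted p over all genes under 0.05. The comparisons share groups of libraries and are not independent of one another.

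**Figure D1:**
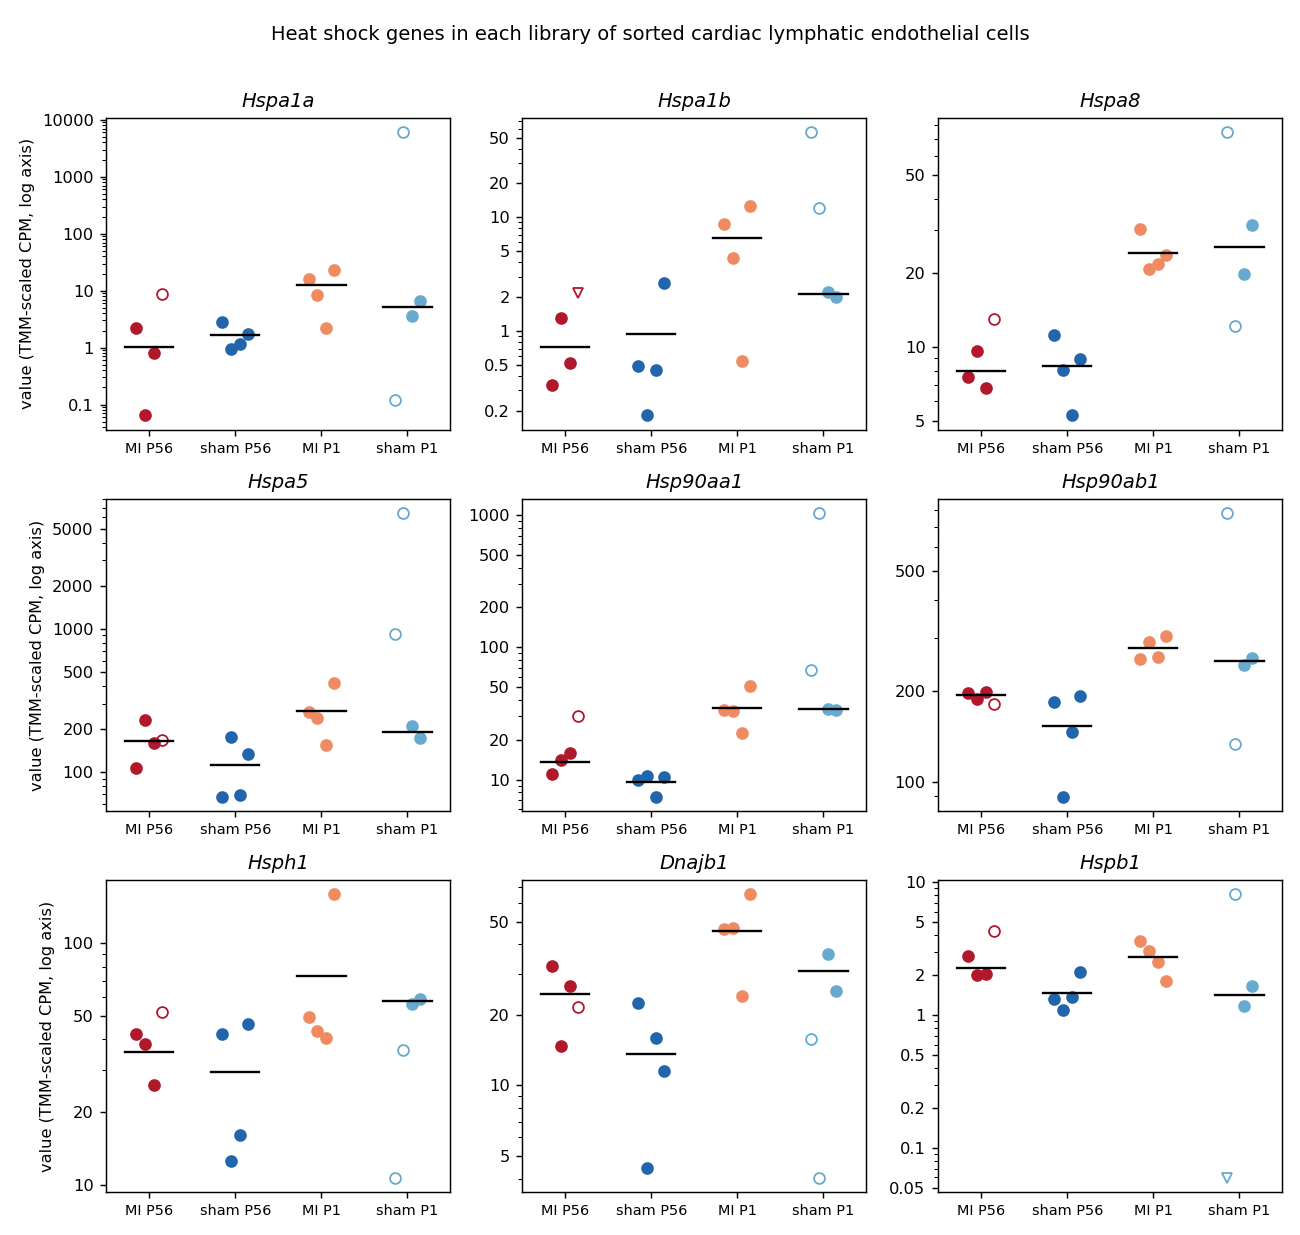
Value of each of the 9 genes in each library (y axis, TMM-scaled CPM, log axis) by group, with filled points for the 13 libraries fitted, open points for the 3 libraries with fewer than 10000 genes, triangles for libraries listed at 0 (drawn below the value of 1 read), and lines for the mean of the filled points. Hspa8, Hsp90aa1 and Hsp90ab1, the last not called, lie lower in every filled P56 library than in every filled P1 library.

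Hspa1a encodes the stress-inducible Hsp70, which most unstressed cells hardly make (chromosome 17, 34969190 to 34972156, minus strand, GRCm38). Its values were 2.25, 0.0647 and 0.798 in MI P56 libraries, against 2.82, 0.931, 1.16 and 1.72 in sham P56 libraries. They were 16.04, 8.55, 2.19 and 23.1 in MI P1 libraries, against 3.65 and 6.70 in sham P1 libraries. After MI the highest P56 library, at 2.25, lay just above the lowest P1 library, at 2.19, so the ages overlapped, and in sham they did not. The mean was 1.04 ± 1.11 in MI P56 (SD, n = 3) and 12.5 ± 9.08 in MI P1 (SD, n = 4), a log2 difference of -2.52 ± 0.55 (SE, adjusted p = 0.0094). In sham the mean was 1.66 ± 0.84 at P56 (SD, n = 4) and 5.18 ± 2.16 at P1 (SD, n = 2), a log2 difference of -1.22 ± 0.62 (adjusted p = 0.22). The call after MI was lost without MI P56 library 2, the library with 3 Hspa1a reads (log2 difference -2.13, adjusted p = 0.074), and with all 16 libraries (-1.93, adjusted p = 0.98).

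Hspa1b, the neighbouring copy that encodes nearly the same protein (chromosome 17, 34956436 to 34959238), was lower than Hspa1a in most libraries. Its values were 0.333, 1.29 and 0.521 in MI P56 libraries, against 0.493, 0.181, 0.452 and 2.64 in sham P56 libraries. They were 8.69, 4.41, 0.548 and 12.4 in MI P1 libraries, against 2.19 and 1.99 in sham P1 libraries. MI P1 library 3 lay among the P56 libraries, and sham P56 library 5 lay above both sham P1 libraries, so the ages overlapped in both comparisons. The log2 difference of P56 from P1 was -1.78 ± 0.56 after MI (adjusted p = 0.071) and -0.82 ± 0.63 in sham (adjusted p = 0.44), neither called. Without MI P1 library 3 the difference after MI was -2.41 with an adjusted p of 0.0046.

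The share of the pair's reads counted for Hspa1a was 60.5% to 87.1% in 11 of the 13 libraries, 4.76% in MI P56 library 2 (3 reads of Hspa1a and 60 of Hspa1b) and 39.5% in sham P56 library 5 (101 and 155 reads). The 3 libraries left out were the most one-sided: sham P1 library 1 had 1 read of Hspa1a and 466 of Hspa1b, sham P1 library 2 had 1496 and 3, and MI P56 library 5 had 2 and 0. Summed over the pair, values were 2.59, 1.36 and 1.32 in MI P56, against 3.32, 1.11, 1.61 and 4.35 in sham P56. They were 24.7, 12.96, 2.74 and 35.6 in MI P1, against 5.84 and 8.69 in sham P1. With the sum, every P56 library lay below every P1 library of the same surgery. The sum fell at P56 after MI by 2.46 on the log2 scale (SE 0.56, adjusted p = 0.013, limma) and differed by -1.28 ± 0.63 in sham (adjusted p = 0.21). The gene Gm20481 overlaps Hspa1a on the opposite strand, and whether counting used strand is not given in the sources used here.

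Hspa8 encodes Hsc70, the constitutive cytosolic Hsp70, which also strips clathrin from vesicles (chromosome 9, 40800984 to 40810087). Its values were 7.52, 9.66 and 6.77 in MI P56 libraries, against 11.2, 8.07, 5.26 and 8.95 in sham P56 libraries. They were 30.2, 20.7, 21.9 and 23.7 in MI P1 libraries, against 19.8 and 31.2 in sham P1 libraries. Every P56 library lay below every P1 library, with a gap between 11.2 and 19.8. The mean was 8.37 ± 2.46 in sham P56 (SD, n = 4) and 25.5 ± 8.08 in sham P1 (SD, n = 2), a log2 difference of -1.51 ± 0.31 (adjusted p = 0.0024). After MI it was 7.99 ± 1.497 at P56 (SD, n = 3) and 24.1 ± 4.26 at P1 (SD, n = 4), a log2 difference of -1.48 ± 0.27 (adjusted p = 0.0026). Over all 16 libraries the log2 differences were -1.65 in sham (adjusted p = 0.055) and -1.32 after MI (adjusted p = 0.48), and without sham P1 library 5 the sham difference was -1.19 (adjusted p = 0.10). Of the 80-base windows of Hspa8, 31.9% also occur in other annotated genes, chiefly the predicted gene Gm15459.

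Hsp90aa1 encodes the stress-inducible Hsp90 alpha (chromosome 12, 110690605 to 110702728). Its values were 11.03, 13.97 and 15.96 in MI P56 libraries, against 9.93, 10.6, 7.43 and 10.4 in sham P56 libraries. They were 33.3, 32.9, 22.3 and 50.6 in MI P1 libraries, against 33.9 and 33.8 in sham P1 libraries. Every P56 library lay below every P1 library, and within P56 every MI library lay above every sham library. The mean was 9.57 ± 1.45 in sham P56 (SD, n = 4) and 33.9 ± 0.0289 in sham P1 (SD, n = 2), a log2 difference of -1.73 ± 0.29 (adjusted p = 0.00054). After MI it was 13.7 ± 2.48 at P56 (SD, n = 3) and 34.8 ± 11.7 at P1 (SD, n = 4), a log2 difference of -1.25 ± 0.26 (adjusted p = 0.0071). The sham call held under all 28 alternatives run. With all 16 libraries the difference was -3.20 in sham (adjusted p = 0.014), where sham P1 library 2 stands at 1030, and -0.97 after MI (adjusted p = 0.97). Of its 80-base windows 41.9% also occur in other annotated genes, chiefly Gm12346.

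Hsp90ab1, the constitutive Hsp90 beta (chromosome 17, 45567775 to 45573271), had values of 198, 188 and 198 in MI P56 libraries, against 184, 89.3, 146 and 193 in sham P56 libraries. They were 256, 291, 260 and 304 in MI P1 libraries, against 245 and 258 in sham P1 libraries. As for Hsp90aa1, every P56 library lay below every P1 library, but the distance was smaller. The log2 difference was -0.77 ± 0.26 in sham (adjusted p = 0.057) and -0.51 ± 0.23 after MI (adjusted p = 0.24), neither called. In sham it passed under 7 of 28 alternatives. Almost none of its 80-base windows, 0.237%, occur elsewhere.

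Hsph1 encodes Hsp110, the nucleotide exchange factor of Hsp70 (chromosome 5, 149614287 to 149636376). Its values were 42.2, 38.2 and 25.9 in MI P56 libraries, against 42.3, 12.6, 16.2 and 46.2 in sham P56 libraries. They were 49.5, 43.5, 40.7 and 159 in MI P1 libraries, against 56.05 and 58.8 in sham P1 libraries. MI P1 library 5 stood far above the rest, the ages did not overlap in sham, and after MI they did. The log2 difference was -1.15 ± 0.50 in sham (adjusted p = 0.14) and -0.80 ± 0.44 after MI (adjusted p = 0.36). No 80-base window of Hsph1, Dnajb1 or Hspa5 occurs in another annotated gene.

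Dnajb1 encodes the main inducible J-domain partner of Hsp70 (chromosome 8, 83608193 to 83612653). Its values were 32.4, 14.7 and 26.6 in MI P56 libraries, against 22.5, 4.45, 15.99 and 11.6 in sham P56 libraries. They were 46.7, 46.8, 24.2 and 65.3 in MI P1 libraries, against 36.4 and 25.4 in sham P1 libraries. The highest sham P56 library lay below the lowest sham P1 library, whereas after MI the ages overlapped. The log2 difference was -1.29 ± 0.46 in sham (adjusted p = 0.074) and -0.86 ± 0.41 after MI (adjusted p = 0.27).

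Hspb1, the small heat shock protein Hsp25 of mouse, which binds unfolding proteins without ATP (chromosome 5, 135887919 to 135889563), did not follow the age pattern. Its values were 2.76, 2.01 and 2.02 in MI P56 libraries, against 1.32, 1.09, 1.37 and 2.09 in sham P56 libraries. They were 3.62, 3.05, 2.49 and 1.80 in MI P1 libraries, against 1.16 and 1.67 in sham P1 libraries. The ages overlapped under both surgeries, with log2 differences of 0.03 ± 0.35 in sham (adjusted p = 0.98) and -0.18 ± 0.31 after MI (adjusted p = 0.83). The 95% intervals were -0.72 to 0.77 in sham and -0.84 to 0.47 after MI. Of its 80-base windows 45.9% also occur in Hsp25-ps1.

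Hspa5 encodes BiP, the Hsp70 of the ER and the standard readout of the unfolded protein response (chromosome 2, 34771970 to 34777547). Its values were 106, 230 and 158 in MI P56 libraries, against 67.3, 176, 69.1 and 134 in sham P56 libraries. They were 264, 236, 155 and 417 in MI P1 libraries, against 208 and 172 in sham P1 libraries. All groups compared overlapped, although in sham only just, 176 in the highest P56 library lying above 172 in the lowest P1 library. The log2 difference of P56 from P1 was -0.88 ± 0.40 in sham (adjusted p = 0.16) and -0.68 ± 0.35 after MI (adjusted p = 0.32). With all 16 libraries it was -2.72 in sham (adjusted p = 0.040), where sham P1 libraries 1 and 2 stand at 923 and 6397.

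Counted over the members, every sham P56 library lay below every sham P1 library for 6 of 9 genes, against 16.7% of all genes, and after MI for 3 of 9, against 11.2%. Over all 16 libraries 2 of 9 lay apart in this way in each comparison, against 2.72% of genes in sham and 8.21% after MI. In that fit 3.91% of 13243 genes were called for age in sham, with 2 members (Hspa5 and Hsp90aa1) lower, and 0.106% after MI, with 0 members. The 3 members called in the 13 libraries are among the 5 whose 80-base windows are shared with other genes by over 30%. The part of such shared reads in the result was not tested.

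**Figure D2:**
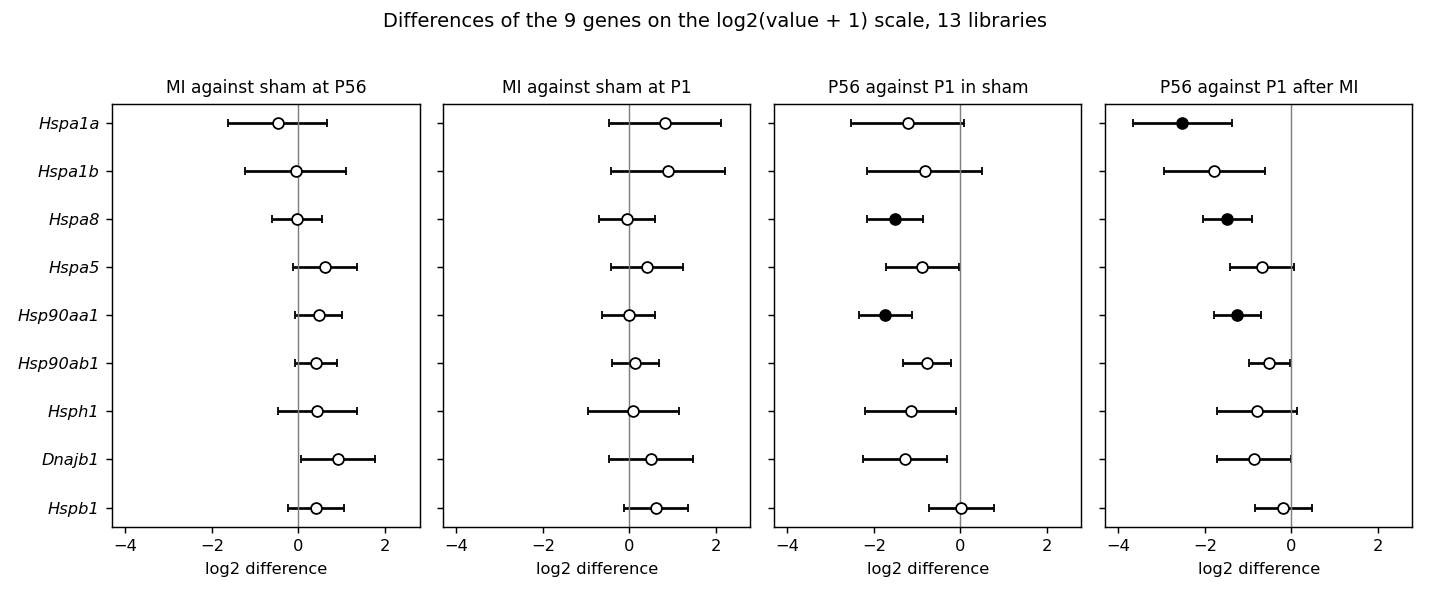
Log2 difference (x axis, log2(value + 1) scale) of each gene in 4 comparisons over 13 libraries, with 95% intervals. Filled points passed the test, all of them lower at P56, and every interval for MI against sham crosses 0 except that of Dnajb1 at P56.

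Infarction left the 9 genes without a called change at P56, where 3.42% of all genes were called, 2.36% higher and 1.07% lower. Fitted values of 6 of 9 were higher after MI, and the members' median log2 difference was 0.41, against 0.01 over all genes. Dnajb1 had the largest difference, 24.6 ± 9.00 in MI P56 (SD, n = 3) and 13.6 ± 7.61 in sham P56 (SD, n = 4), a log2 difference of 0.92 ± 0.41 with a 95% interval of 0.07 to 1.78 (unadjusted p = 0.036, adjusted p = 0.25, limma). Its groups overlapped. Hsp90aa1 was the only member whose 3 MI libraries lay above all 4 sham libraries, a pattern found in 8% of all genes. Its log2 difference was 0.47 ± 0.26 (95% interval -0.07 to 1.01, adjusted p = 0.37). Hspa5 differed by 0.61 ± 0.35, Hsph1 by 0.44 ± 0.44, Hspb1 by 0.41 ± 0.31 and Hsp90ab1 by 0.40 ± 0.23, with adjusted p from 0.39 to 0.66. The inducible pair did not share this sign, at -0.48 ± 0.55 for Hspa1a and -0.07 ± 0.56 for Hspa1b, and Hspa8 differed by -0.03 ± 0.27 (95% interval -0.60 to 0.53). With all 16 libraries 0.174% of genes and 0 members were called. The difference of Hspa1a was 0.12 with all 16, of the opposite sign.

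At P1 infarction gave no call among all genes (0%), and 0 members passed. Over all genes 485 had an unadjusted p under 0.05, none of them a member, edgeR called 0 genes and DESeq2 called 7, none of them a member. The largest differences were those of the inducible pair, 0.82 ± 0.62 for Hspa1a (95% interval -0.47 to 2.12) and 0.89 ± 0.63 for Hspa1b (95% interval -0.43 to 2.22), with the 4 MI P1 libraries spread over 10.5-fold and 22.7-fold. Hspb1 differed by 0.62 ± 0.35, and all 4 of its MI libraries lay above both sham libraries, as in 8.89% of genes. Dnajb1 differed by 0.49 ± 0.46 and Hspa5 by 0.42 ± 0.40, while Hsp90ab1, Hsph1, Hsp90aa1 and Hspa8 lay between -0.06 and 0.14. Every adjusted p was 1. With all 16 libraries, where sham P1 libraries 1 and 2 enter, 3 of 9 fitted differences were positive, the largest that of Dnajb1 (1.38). Those of Hspa1a, Hspa1b, Hspa5, Hsp90aa1, Hsp90ab1 and Hspa8 were negative (-1.07, -0.68, -1.42, -1.48, -0.04 and -0.20), and none of the 9 was called.

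The response to MI was not shown to differ between the ages for any member. The difference of the responses, P56 minus P1, was called for 0.483% of all genes and for 0 of 9 members. It was largest for Hspa1a, -1.30 ± 0.82 (95% interval -3.03 to 0.43, adjusted p = 0.62), followed by Hspa1b at -0.96 ± 0.84 (adjusted p = 0.75). The other 7 lay between -0.21 and 0.49, with adjusted p of 0.72 or more. Over all 16 libraries the signs of Hspa1a (1.19) and Hspa1b (0.43) were reversed, and Hsp90aa1 (2.23, adjusted p = 0.51) and Hspa5 (2.06, adjusted p = 0.52) had the largest differences, none called.

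Levels can be compared between genes only per length, here as value per kilobase of exons, as means over the 13 libraries. Hsp90ab1 stood highest at 72.0, above 99.7% of 15871 genes, and Hspa5 followed at 43.5, above 99.5%. Dnajb1 (8.95), Hsph1 (6.68), Hsp90aa1 (5.60) and Hspa8 (3.67) followed, and Hspb1 (1.97), Hspa1a (1.81) and Hspa1b (0.993) had the lowest means, with Hspa1b above 49.9% of genes. This order of means over unequal groups did not hold in every group. Hspa1a stood above Hspb1 in MI P1 (4.21 and 2.66) and in sham P1 (1.74 and 1.37), and Hspb1 above Hspa8 in MI P56 (2.19 and 1.86). The top 2 kept that order in each group mean, at 64.9 and 39.0 in MI P56, 51.0 and 26.4 in sham P56, 92.6 and 63.4 in MI P1, and 83.8 and 44.9 in sham P1. The ranges of Hsp90ab1 and Hspa5 lay apart in 2 of 4 groups, MI P56 and sham P1, and those of Hspa5 and Dnajb1 in 4 of 4. Dnajb1 and Hsph1 overlapped in every group, and Hsph1 and Hsp90aa1 in 3. In the remaining group, sham P1, Hsp90aa1 (8.607 to 8.618) lay above Hsph1 (7.71 to 8.09), against the order of the means. Hsp90aa1 and Hspa8, Hspa8 and Hspb1, and Hspb1 and Hspa1a each lay apart in 2 groups, and Hspa1a and Hspa1b in 1, sham P1. The part of shared windows in the levels of Hspa8, Hsp90aa1, Hspb1 and the Hspa1 pair was not tested.

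Single libraries stood out across the members. MI P1 library 5 was the highest of all 13 libraries for 7 of 9 genes (all but Hspa8 and Hspb1), and MI P1 library 3 was the lowest of its group for 6 of 9. Library 5 also had the highest lymphatic sum (2554) and chaperonin sum (291) of MI P1. Its fibroblast (1190), cardiomyocyte (93.3), pericyte and smooth muscle (90.9) and blood endothelial (228) sums were the lowest of that group. The part of cell content in its high values was not tested. Sham P56 library 2, the library with the fewest genes of the 13, was the lowest of its group for 6 of 9. Hsp90ab1 varied least within MI P1, with a coefficient of variation of 8.53%, and Hspa1b (79.1%), Hsph1 (78.2%) and Hspa1a (72.8%) varied most. Without MI P1 library 5 the members called for age after MI were Hspa1a, Hspa8 and Hsp90aa1, as with it. Across the 13 libraries, as a description over points that share groups, Pearson r of log2(value + 1) was 0.894 between Hspa8 and Hsp90aa1, 0.889 between Hsp90ab1 and Dnajb1 and 0.843 between Hspa1a and Hspa1b. As deviations from group means these were 0.275, 0.711 and 0.666.

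Among 6086 genes with a mean value of at least 5, the genes most like Dnajb1 over the 13 libraries were Hnrnpa1 (r = 0.971), Eif3a (0.957), Stat3 (0.950), Fzd5 (0.948) and Rnf19b (0.946). For Hsph1 they were Pspc1 (0.942), Rc3h1 (0.903), Mdn1 (0.886), Ccnyl1 (0.881) and Rmnd5b (0.877). For Hspa5 they were BC005537 (0.909), Rplp0 (0.907), Rps4x (0.870), the chaperonin subunit Cct2 (0.866) and Arf4 (0.863). These are the extremes of many correlations over libraries that share groups, and they are given as a description.

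Other genes of the chaperone network included calls in both directions. Of 65 other chaperone and co-chaperone genes, 60 were listed and 59 tested. In sham, P56 against P1, 7 were higher and 3 lower, where 5.89% of all genes were higher and 7.28% lower. The median log2 difference of the 59 was -0.17, and 23 of the 59 had higher fitted values at P56. The lower ones were Dnaja1, a J-domain partner of Hsc70 (-1.15 ± 0.35, adjusted p = 0.035), and the chaperonin subunits Tcp1 (-1.06 ± 0.24, adjusted p = 0.0056) and Cct5 (-0.93 ± 0.29, adjusted p = 0.041). After MI, 0 were higher and 1 was lower at P56, Dnaja1 (-1.53 ± 0.31, adjusted p = 0.0059), with a median of -0.01. Over all genes 2.09% were higher and 3.26% lower after MI. The small heat shock genes went the other way. All 4 tested apart from Hspb1 were higher in sham P56 than in sham P1: Hspb7 by 2.34 ± 0.49, Hspb8 by 2.05 ± 0.36, Cryab by 1.65 ± 0.47 and Hspb6 by 1.64 ± 0.41 on the log2 scale (adjusted p from 0.00067 to 0.026). Their summed value was 30.4 to 40.3 in MI P56, 56.3 to 76.8 in sham P56, 12.6 to 26.1 in MI P1 and 11.54 to 13.7 in sham P1. These 4 genes are known for high expression in heart muscle. The summed value of 7 cardiomyocyte genes (Ttn, Myh6, Myh7, Tnnt2, Actc1, Mb and Ryr2, all detected) moved with them, at 316 to 562 in MI P56, 1254 to 2289 in sham P56, 93.3 to 334 in MI P1 and 145 to 219 in sham P1. All 7 were called higher in sham P56 than in sham P1 and lower in MI P56 than in sham P56, and over all 16 libraries 6 and 1 of the 7. The sum of 5 pericyte and smooth muscle genes was also highest in sham P56, at 390 to 1005. It was 181 to 310 in MI P56, 90.9 to 242 in MI P1 and 82.0 to 191 in sham P1. The sum of 6 blood endothelial genes was highest there too, at 390 to 600. It was 195 to 266 in MI P56, 228 to 346 in MI P1 and 203 to 213 in sham P1. The part of any of these cells in the result was not tested. The remaining higher genes for age in sham in the 13 libraries were Hspa12a (1.60 ± 0.28, adjusted p = 0.00081), Fkbp5 (1.45 ± 0.41, adjusted p = 0.025), an Hsp90 co-chaperone of steroid receptors, and Bag5 (1.21 ± 0.36, adjusted p = 0.032), a nucleotide exchange factor of Hsp70. In the fit of all 16 libraries 3 of the 59 were higher and 0 lower for age in sham, and 0 passed after MI. The list's median in sham was then 0.25, of the opposite sign, with 35 of the 59 higher at P56. The median of all genes in that fit was 0.36. In sham 3.91% of all genes were then called in either direction. Of the 3 higher genes, 2 were small heat shock genes and 1 a J-domain protein. Hspa12a, Fkbp5 and Bag5 were thus no longer called, and Dnaja1, Tcp1 and Cct5 were no longer called lower.

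**Figure D3:**
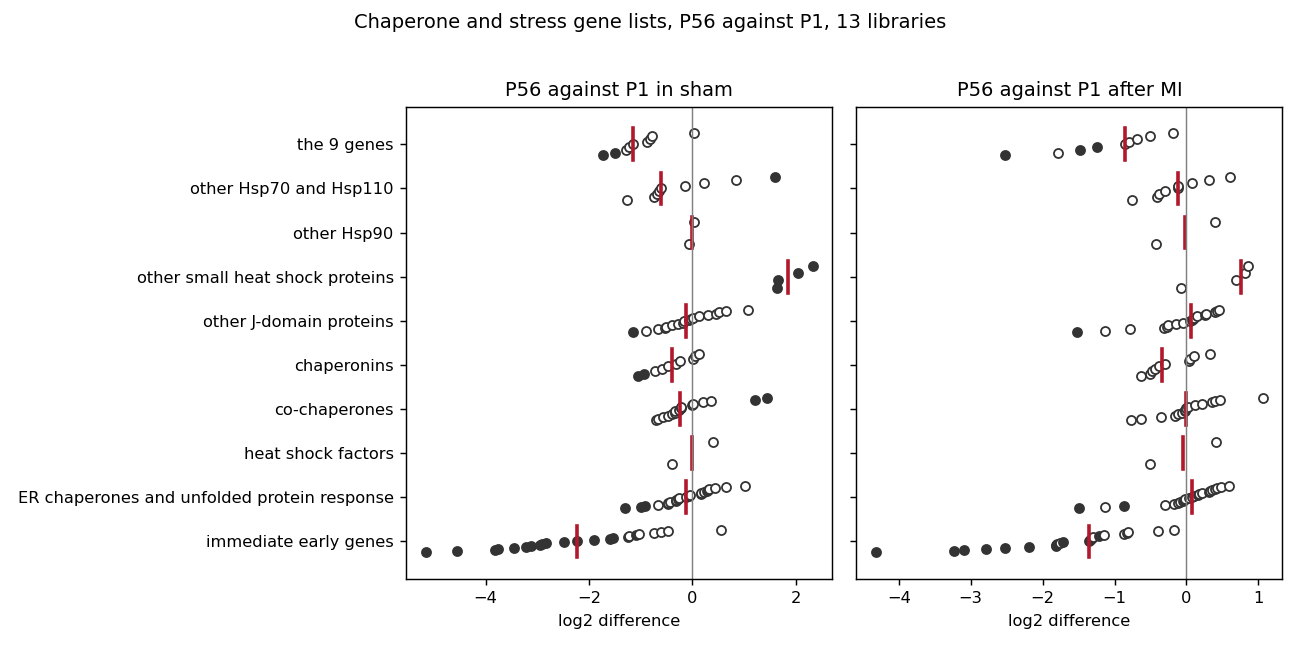
Log2 difference of P56 from P1 (x axis) in sham and after MI for the 9 genes and for each list of chaperone and stress genes, 1 point per tested gene, filled where it passed the test, with a bar at each list's median. The 9 genes lie left of 0 apart from Hspb1 in sham, the 4 other small heat shock genes lie right of 0 in sham, and the immediate early genes lie farthest left, with a median of -2.24 in sham.

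For MI against sham at P56, 2 of the 59 other chaperone genes were lower, Hspb6 (-1.37 ± 0.36, adjusted p = 0.041) and Dnajb2 (-1.32 ± 0.35, adjusted p = 0.039), and 0 were higher, against 1.07% lower and 2.36% higher over all genes. Neither passed over all 16 libraries, where 0 of the 59 were called and the list's median was -0.19, against 0.06 in the 13 libraries. At P1 and for the difference of the responses 0 of 59 passed. All 10 chaperonin subunits had higher fitted values in MI P56 than in sham P56, with a median of 0.44, and none passed. Over all 16 libraries 8 of the 10 were higher, with a median of 0.25, and none passed. Of the heat shock factors, Hsf1 and Hsf2 were tested and Hsf5 was listed but fell below the filter, and none was called in any comparison. Hsf1 had a mean of 7.05 ± 0.47 in MI P56 (n = 3), 7.45 ± 2.89 in sham P56 (n = 4), 5.21 ± 1.62 in MI P1 (n = 4) and 5.17 ± 0.06 in sham P1 (n = 2, all SD). Hsf2 had 8.10 ± 0.85 in MI P56, 11.8 ± 9.01 in sham P56, 12.0 ± 1.53 in MI P1 and 13.2 ± 1.58 in sham P1.

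Around Hspa5, 23 genes of ER folding and the unfolded protein response were tested. P4hb, a protein disulfide isomerase that is also a subunit of collagen prolyl hydroxylase, was higher in MI P56 (87.9 ± 19.7, n = 3) than in sham P56 (32.6 ± 8.63, n = 4, both SD), with a log2 difference of 1.42 ± 0.25 (adjusted p = 0.0031), and no other gene of the list passed in that comparison. The transcription factors Atf4 and Ddit3 of the integrated stress response were lower at P56 in sham (-0.91 ± 0.26, adjusted p = 0.025, and -1.31 ± 0.39, adjusted p = 0.030) and after MI (-0.87 ± 0.23, adjusted p = 0.031, and -1.50 ± 0.34, adjusted p = 0.013). P4hb was also lower at P56 in sham (-0.99 ± 0.29, adjusted p = 0.027). Over all 16 libraries 0 of the 23 passed in any comparison, so each of these calls was lost, and the sham difference of Ddit3 had the opposite sign (0.38). The list's median was -0.12 in sham and 0.07 after MI, so the difference of Hspa5, -0.88 and -0.68, was lower than the middle of its list in both.

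Immediate early genes, transcription factors and regulators induced within minutes of a stimulus, were lower at P56 too, with a larger median difference than the members. Of 23 tested, 17 were lower and 0 higher in sham P56 against sham P1 (median log2 difference -2.24), and 15 were lower and 0 higher after MI (median -1.36). In sham the 4 largest were Fosb (-5.16 ± 0.58), Nr4a2 (-4.56 ± 0.42), Fos (-3.81 ± 0.46) and Egr2 (-3.77 ± 0.55), each with an adjusted p of 0.00014 or less. Summed over the list, values were 657 to 902 in MI P56, 451 to 746 in sham P56, 1848 to 3361 in MI P1 and 2154 to 2285 in sham P1. The sum of the 9 heat shock genes was 402 to 498 in MI P56, 263 to 410 in sham P56, 529 to 1057 in MI P1 and 589 to 606 in sham P1. Most of it was Hspa5 and Hsp90ab1, neither called for age in the 13 libraries. Their means were 190 and 251 of 598 in sham P1, and 112 and 153 of 330 in sham P56. For MI against sham at P56, 7 of the 23 were higher and 0 lower, the 4 largest being Egr2 (2.50 ± 0.48, adjusted p = 0.0053), Fosb (1.96 ± 0.51, adjusted p = 0.040), Nr4a2 (1.87 ± 0.37, adjusted p = 0.0063) and Nr4a1 (1.61 ± 0.43, adjusted p = 0.046). Markers of other cells moved in the same comparison: 3 of 6 fibroblast and 2 of 5 tested macrophage and leukocyte genes were higher in MI P56, and 2 of 6 blood endothelial genes and 7 of 7 cardiomyocyte genes were lower. The 6 macrophage and leukocyte genes summed to 16.5 to 85.0 in MI P56 and 5.35 to 9.19 in sham P56, and the 6 blood endothelial genes to 195 to 266 in MI P56 and 390 to 600 in sham P56, all genes of both lists being detected. Their part in the differences of P4hb and of the immediate early genes was not tested. At P1 0 immediate early genes passed. When all 16 libraries were fitted, 9 were lower for age in sham, 1 was lower after MI and 0 passed for MI against sham at P56. Among MI P1 libraries 1, 2, 3 and 5 the sums of the 9 heat shock genes were 708, 687, 529 and 1057. The immediate early sums of these libraries were 2797, 3361, 3273 and 1848. Library 5 also had the lowest fibroblast sum of its group (1190), the lowest cardiomyocyte sum (93.3) and the highest lymphatic sum (2554). The part of the digestion or of other cells in either set of genes was not tested.

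**Figure D4:**
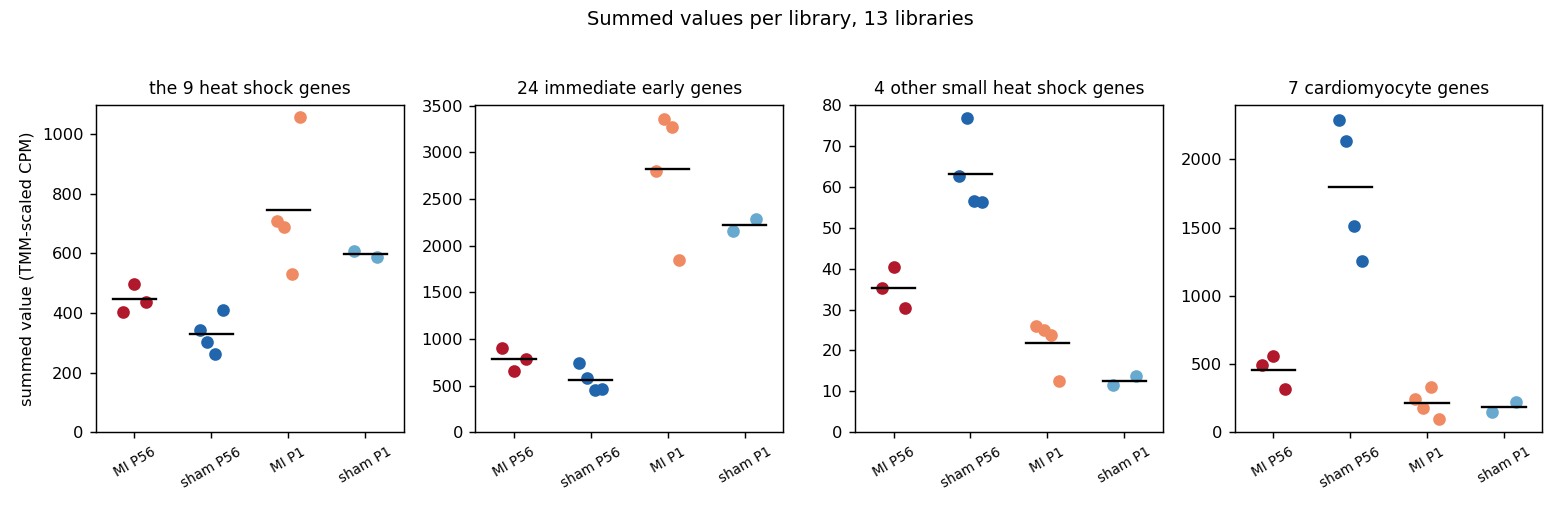
Summed value per library (y axis, TMM-scaled CPM, from 0) of the 9 heat shock genes, of 24 immediate early genes, of the 4 other small heat shock genes and of 7 cardiomyocyte genes in the 13 libraries, 1 point per library with a line at each group mean. The first and second panels are lower at P56, and the small heat shock and cardiomyocyte sums are highest in sham P56. Most of the first sum is Hspa5 and Hsp90ab1.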

How the data were processed

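RNA was sequenced from 16 libraries of sorted cells, with reads of 80 bases. The submitters' processing notes name the tools Trimmomatic, STAR, HTSeq and edgeR, without versions, and the build mm10 (GRCm38). How HTSeq treated strand and reads that match several genes is not given in the sources used here. The deposited values are a signal that the authors named CPM: every value, 100% of them, was a whole number of reads (within 0.01 read) times 1 constant per library, and the columns summed to between 297624 and 177049106, so they are scaled and not plain CPM. The whole reads recovered in this way were used for depth, edgeR and DESeq2. Columns with the number 5 have no sample title of that number and were placed by the group their name gives.

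The filter asked for a value of 1 or more in 4 or more of the 13 libraries, themselves those with 10000 or more detected genes, and limma-trend 3.58.1 (R 4.3.3) was fitted to log2(value + 1) with the 4 groups sharing 1 estimate of spread, and p-values were Benjamini-Hochberg adjusted over all genes. Log2 differences on this scale understate the change of low genes. Alternatives were all 16 libraries with and without weights, 14 libraries, other filters, pseudocounts and scalings, only the groups compared, a block on the number, edgeR 4.0.16, DESeq2 1.42.0, the Hspa1a and Hspa1b sum and each library left out. Named genes are the 9 members, the heat shock factors and up to 4 called genes per list and comparison with the largest change; other genes of the called small lists were named after their values were seen. The members and lists were chosen with earlier results of these data known. Windows were counted over GENCODE M21 transcripts, whose coordinates for the 9 genes match the deposited ones. Low values carry counting error, and 3 reads were worth 0.0489 to 0.109 in the 13 libraries.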

Additional observations from a re-analysis of the deposited data

Results flagged for a closer look

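Of 36 tests, 1 for each of 9 genes in 4 groups of 4 libraries, 5 found a library whose gap to the next, as a share of the group's range, exceeded Dixon's 95% critical value. A chance rate of about 1 flag in 20 groups holds for independent, normally distributed values. The values here were not log-transformed and the 9 genes share libraries, so that rate cannot be applied to the 36 tests. Sham P1 library 2 was the highest of its 4 for Hspa1a at 6042, for Hspa5 at 6397 and for Hsp90aa1 at 1030. That library had 7939 genes with a read, 1 read was worth 4.04 in it, and the tests of 13 libraries leave it out. MI P1 library 5 was the highest of its group for Hsph1 at 159, against 40.7 to 49.5 in the other MI P1 libraries. Sham P56 library 5 was the highest of its group for Hspa1b at 2.64, against 0.181 to 0.493 in the other sham P56 libraries.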

How the results depend on the processing

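Members called for MI against sham at P56, at P1 and for the difference of the responses numbered 0 under all alternatives. For age in sham (2 called), 5 were called with 16 weighted libraries, and leaving out 1 library gave 1 (without sham P1 library 5) to 4 (without sham P56 library 1). For age after MI (3 called), 0 were called with all 16 libraries, 5 with 16 weighted libraries and 0 with 14, an alternative chosen after seeing the data that keeps sham P1 library 1; leaving out 1 library gave 2 to 4. In the fit with 14 libraries the adjusted p after MI was 0.13 for Hspa1a, 0.15 for Hspa8 and 0.18 for Hsp90aa1; the cause was not tested. None of the 5 called differences changed sign. Of the 40 others, 18 changed sign under at least 1 alternative, none of them called there.

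Over all genes the 446 calls for MI at P56 became 23 with all 16 libraries, 46 with 14, 899 with weights, 153 with only the groups compared, 866 with DESeq2 and 143 without MI P56 library 3. The 0 calls at P1 became 70 with weights, 8 with only the groups compared, 7 with DESeq2 and 0 to 2 otherwise. The 63 calls for the difference of the responses ranged from 1 (all 16 libraries, or without sham P1 library 5) to 438 (weights). The 1716 calls for age in sham ranged from 518 (all 16) to 3053 (weights), and were 644 without sham P1 library 5, 804 without sham P1 library 3 and 728 with only the groups compared. The 697 calls for age after MI ranged from 14 (all 16) to 1419 (weights), and were 97 with 14 libraries, 317 without MI P56 library 2 and 1344 without sham P56 library 2. Deviations from group means had r above 0.1 in 1 of 15 same-numbered pairs of libraries and in 10 of 47 other pairs. With group means of as few as 2 libraries, this cannot decide whether the numbers pair the libraries. With the replicate block 0, 0, 0, 2 and 3 members were called for the 5 comparisons, as without it, and 331, 0, 8, 1215 and 551 genes over the whole table. With 2 sham P1 libraries, comparisons that use that group have the least precision.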
